A study of Bos taurus with 12 samples.

Results

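Histamine, acetylcholine, prostaglandin E, melanocortin peptides and serotonin are signals that cells read through receptors at their surface. The transcripts of 5 such receptors were followed here: HRH1, CHRNB4, PTGER3, MC4R and HTR2B. They were chosen by gene symbol, and every probe set that the platform annotation assigns to one of them was taken, whatever its level. This gave 6 probe sets of 24128 on the array, or 5 of 9155 genes that have a probe set with a single symbol. HTR2B had 2 probe sets and the other receptors 1 each.

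The cells were cultured bovine chromaffin cells from adrenal glands. One group stayed untreated. The cytokine groups were kept for 24 h in 10 nM interleukin-6 (IL6) or 1 nM human interferon alpha (IFNα), and the last group for 6 h in 10 µM histamine. There were 3 arrays in each of the 4 groups, which the submitters call technical repeats, so p-values here measure only the spread between arrays and not that between cultures or animals. The number of glands, the culture time of the untreated cells and the species of the IL6 are not stated in the labels used, and the same untreated arrays serve all 3 treatments.

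Chromaffin cells of the adrenal medulla release catecholamines and peptides when the splanchnic nerve discharges acetylcholine onto their nicotinic receptors, ion channels built of alpha and beta subunits. Histamine also drives secretion, through a receptor that couples to phospholipase C and calcium release. Other receptors act through G proteins that raise or lower cyclic AMP, and so tune the secretory response and the transcription that follows it.

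Values are deposited log2 expression levels, so a difference of 1 is a doubling. A probe set was called changed when limma's adjusted p was under 0.05 and its fold was at least 1.5. Arrays of a group correlated with each other at 0.993 to 0.998 across probe sets, and array medians ran from 6.40 to 6.46. In 3 arrays, a list of hypoxia and glycolysis genes (12 of 15 measured) stood above the untreated mean: by 0.94 and 1.42 in IL6 repeats 2 and 3, and by 1.08 in IFNα repeat 3. The same list mean was 0.14 in IL6 repeat 1, -0.01 in each of the other IFNα arrays, 0.29 to 0.37 after histamine and -0.04 to 0.02 in untreated cells. Results for the cytokines are therefore given with and without those 3 arrays where they differ in call, direction or by about 1.5 times. Without them the IL6 group is left with repeat 1 alone, so its differences are then given without a test.

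Histamine lowered 4 of the 5 receptor transcripts: CHRNB4, PTGER3, MC4R and HTR2B. None of the receptors was called higher after histamine. Over all probe sets tested, 2.71% were called lower and 2.99% higher after histamine. IL6 raised PTGER3 and lowered MC4R, against 1.44% of probe sets called higher and 0.949% called lower. IFNα raised HTR2B and lowered MC4R, against 2.18% called higher and 1.18% called lower, and this MC4R call held in 12 of 25 alternative analyses. The receptors were singled out with these data already known, so their counts are a description and not a test of receptors as a class. In whole-culture RNA, fewer cells of a type and less RNA per cell cannot be told apart.

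**Figure D1:**
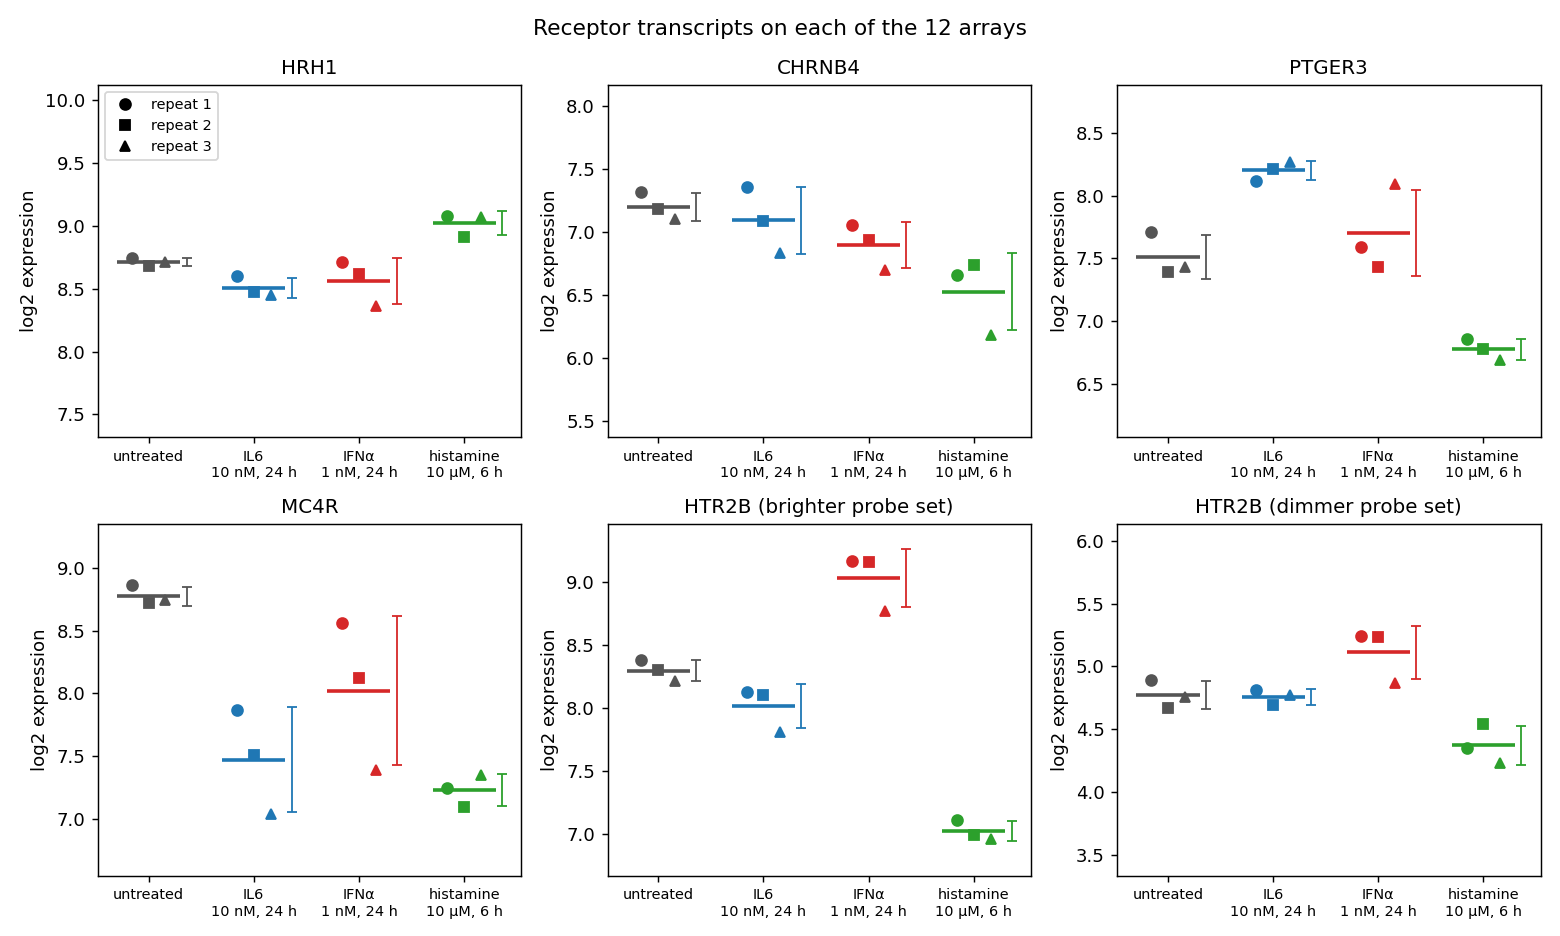
Log2 expression level (vertical axis) of the 6 receptor probe sets on every array, by group, with a panel for each; points are arrays (shapes give the repeat number), horizontal lines are group means and brackets are ± 1 SD. The 3 histamine arrays lie below all untreated arrays for CHRNB4, PTGER3, MC4R and HTR2B, and above them for HRH1.

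Separation of the arrays gave a wider picture, with no fold minimum. For all 5 receptors the histamine arrays lay clear of the untreated ones, which held for 43.7% of all probe sets. After IL6 this held for HRH1, PTGER3, MC4R and HTR2B, and for 33.9% of all probe sets. After IFNα it held for CHRNB4, MC4R and HTR2B, and for 32.9% of all probe sets. Since such separation was common across the array, it says little about these receptors by itself.

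HRH1 encodes the histamine receptor that couples to phospholipase C, the receptor through which histamine stimulates chromaffin cells. Its level was 8.74, 8.68 and 8.71 on the untreated arrays and 9.08, 8.91 and 9.07 after histamine. It was 8.60, 8.47 and 8.45 after IL6, and 8.71, 8.62 and 8.36 after IFNα. The histamine arrays stood above all others, the IL6 arrays stood below the untreated ones, and the IFNα arrays overlapped the untreated ones.

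The difference after histamine was 0.31 (SE 0.08, 95% interval 0.13 to 0.49), or 1.24-fold, with an adjusted p of 0.00893 by limma. It passed the adjusted p but not the fold minimum, so HRH1 was not called. The differences after IL6 (-0.20, adjusted p 0.105) and IFNα (-0.15, adjusted p 0.273) did not pass the test. Without the 3 arrays with high hypoxia genes they were -0.11 and -0.045. Of the histamine list (receptors and the enzymes that make or break down histamine), 4 of 7 genes were measured. None was called by limma in any comparison, and 1, 0 and 1 of the 4 had an unadjusted p under 0.05 after IL6, IFNα and histamine. HDC, which makes histamine, had a mean of 3.88 in untreated cells, under the lower quartile of each array (which ran from 5.02 to 5.11).

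CHRNB4 encodes a beta subunit that joins alpha subunits in the ganglionic type of nicotinic receptor, the main acetylcholine-gated channel of chromaffin cells. The untreated arrays read 7.32, 7.18 and 7.10, and the histamine arrays read 6.66, 6.74 and 6.18. The IL6 arrays read 7.36, 7.09 and 6.83, and the IFNα arrays read 7.06, 6.94 and 6.70. Every histamine array lay below every untreated array and the IFNα arrays lay just below them, while IL6 and untreated arrays overlapped.

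After histamine CHRNB4 fell by 0.67 (SE 0.15, 95% interval -0.997 to -0.350), which is 1.59-fold, with an adjusted p of 0.00302. Histamine repeat 3 was the lowest array, and without it the difference was -0.50, short of the fold minimum. After IFNα the difference was -0.30 (adjusted p 0.217), and -0.20 without repeat 3. After IL6 it was -0.11 (adjusted p 0.673), and it turned to 0.16 without the 3 arrays with high hypoxia genes and to 0.025 without IL6 repeat 3 alone.

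The genes of 3 nicotinic subunits, CHRNA5, CHRNA3 and CHRNB4, are listed next to each other in the RefSeq cattle gene table, so the other two, chosen after their values were seen, are given beside it. CHRNA5, an accessory alpha subunit, read 8.22, 8.16 and 8.16 in untreated cells, 7.75, 7.74 and 7.63 after histamine, 7.70, 7.74 and 7.76 after IL6, and 8.24, 8.19 and 7.90 after IFNα. Its differences of -0.47 after histamine (adjusted p 0.00031) and -0.45 after IL6 (adjusted p 0.0013) passed the adjusted p but fell short of the fold minimum. CHRNA3, the alpha subunit that pairs with CHRNB4 in ganglionic receptors, differed by 0.17 after histamine (adjusted p 0.267), 0.09 after IL6 and -0.25 after IFNα, none of which passed the test. Without the 3 arrays with high hypoxia genes the IL6 difference of CHRNA3 was 0.25. These 3 neighbours thus had histamine differences of -0.47, 0.17 and -0.67.

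Of 16 nicotinic subunit genes listed, 10 were measured. CHRNB4 after histamine and CHRNB1 after IFNα were called, and no subunit was called after IL6 by limma, where 2 had an unadjusted p under 0.05. CHRNB1, the beta subunit of the muscle type receptor, read 7.14, 7.16 and 7.13 in untreated cells and 7.82, 7.84 and 7.86 after IFNα, a rise of 0.70 (SE 0.08), or 1.62-fold, with an adjusted p of 2.63e-05. The median difference of the 10 genes was 0.057 after IL6, -0.015 after IFNα and 0.108 after histamine, against -0.01, -0.02 and 0.007 over all genes.

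Proteins that act on nicotinic receptor assembly or surface number were also listed, and 5 of 9 were measured. VSNL1, a neuronal calcium sensor, rose from 9.02, 9.05 and 9.01 to 10.97, 10.91 and 10.92 after histamine, a difference of 1.91 or 3.75-fold (adjusted p 3.1e-12). A second, dim VSNL1 probe set differed by 0.32. LY6E, a small membrane-anchored protein known as an interferon-stimulated gene, rose 6.42-fold after IFNα, by 2.68 on the log2 scale. None of the 5 was called after IL6 by limma, where 2 had an unadjusted p under 0.05.

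PTGER3 encodes a prostaglandin E receptor that lowers cyclic AMP through inhibitory G proteins. Its untreated arrays read 7.71, 7.39 and 7.43, and its IL6 arrays read 8.12, 8.21 and 8.27. The histamine arrays read 6.86, 6.78 and 6.69, and the IFNα arrays read 7.59, 7.43 and 8.09. All IL6 arrays lay above and all histamine arrays below the untreated ones, while IFNα overlapped them.

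The rise after IL6 was 0.69 (SE 0.13, 95% interval 0.40 to 0.98), or 1.61-fold, with an adjusted p of 0.00264. After histamine PTGER3 fell by 0.73 (SE 0.13, 95% interval -1.02 to -0.45), or 1.66-fold, with an adjusted p of 0.000641. The IFNα difference was 0.19 (adjusted p 0.402), and it was 0 without repeat 3, the array with high hypoxia genes. IL6 repeat 1 had a hypoxia list mean of 0.14 and read 8.12 for PTGER3. Without the 3 arrays with high hypoxia genes the IL6 difference was 0.61, from repeat 1 alone and so without a test.

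In the prostanoid list of receptors and enzymes, 14 of 19 genes were measured. PTGER3 was the single call after IL6, and no gene was called after IFNα by limma, where 4 had an unadjusted p under 0.05. After histamine PTGER3 was lower and PTGFR, the receptor for prostaglandin F, was higher. PTGFR read 6.39, 6.10 and 6.31 in untreated cells and 8.01, 7.83 and 7.72 after histamine, a rise of 1.59 (SE 0.15), or 3.00-fold, with an adjusted p of 1.46e-06. Its other 2 probe sets differed by 0.31 and 0.12 and were not called. The receptors PTGER2 and PTGER4, which raise cyclic AMP, had untreated means of 3.79 and 3.98, below the lower quartile of every array. The list's median difference was 0.088, 0.052 and 0.077 after IL6, IFNα and histamine.

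MC4R encodes a melanocortin receptor that raises cyclic AMP and is best known from the hypothalamus, where it restrains feeding. Its untreated arrays read 8.86, 8.72 and 8.74. They were 7.25, 7.10 and 7.35 after histamine, 7.87, 7.51 and 7.04 after IL6, and 8.56, 8.12 and 7.39 after IFNα. Every treated array lay below every untreated array, and the cytokine arrays were far more spread than the untreated or histamine arrays.

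MC4R fell by 1.54 after histamine (SE 0.23, 95% interval -2.04 to -1.04), or 2.91-fold, with an adjusted p of 0.000127. After IL6 it fell by 1.30 (SE 0.23, 95% interval -1.80 to -0.80), or 2.46-fold, with an adjusted p of 0.00138. With all probe sets that were lower ordered by size of the change, called or not, it stood at rank 8 after histamine and rank 6 after IL6. After IFNα the difference was -0.75 (SE 0.23, 95% interval -1.25 to -0.25), or 1.68-fold, with an adjusted p of 0.0391.

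The spread of MC4R within the cytokine groups was wide: its SD was 0.59 after IFNα and 0.42 after IL6, at the 99.7 and 99.2 percentile of all probe sets in those groups. The lowest IL6 and IFNα arrays, repeat 3 of each, were among the 3 arrays with high hypoxia genes. Without those 3 arrays the IL6 difference was -0.90, from IL6 repeat 1 alone and so without a test. The IFNα difference was then -0.43, short of the fold minimum. The IFNα call was also lost without each untreated array in turn, without IL6 repeat 2, IFNα repeat 2, or histamine repeat 1 or 2, with adjusted p from 0.0511 to 0.145 over these and IFNα repeat 3.

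Of the melanocortin list, 8 of 13 genes were measured, and MC4R was the only one called after any treatment. POMC, the precursor of the melanocortin peptides, had an untreated mean of 13.58, near the top of the scale (highest values per array 14.01 to 14.14), and differed by -0.03, -0.02 and -0.06 after IL6, IFNα and histamine. PCSK1, a convertase that cuts POMC, differed by 0.55 after histamine (adjusted p 0.000324), a 1.46-fold difference just short of the fold minimum. MC2R, the corticotropin receptor of adrenal cortical cells, had an untreated mean of 5.29 and was not called.

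HTR2B encodes a serotonin receptor that couples to phospholipase C. The brighter of its probe sets read 8.38, 8.30 and 8.21 in untreated cells and 7.11, 6.99 and 6.96 after histamine. It read 9.17, 9.16 and 8.77 after IFNα, and 8.13, 8.10 and 7.81 after IL6. The 4 groups did not overlap at all: IFNα was highest, then untreated, IL6 and histamine.

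HTR2B fell by 1.28 after histamine (SE 0.11, 95% interval -1.51 to -1.05), or 2.42-fold, with an adjusted p of 6.01e-07 and rank 17 in the same order of probe sets that were lower. After IFNα it rose by 0.74 (SE 0.11, 95% interval 0.51 to 0.97), or 1.67-fold, with an adjusted p of 0.000172. The difference after IL6 was -0.28 (adjusted p 0.0865), which did not pass the test, and -0.17 without the 3 arrays with high hypoxia genes. Without IFNα repeat 3 the rise was 0.87, since that array was the lowest of its group.

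The dimmer HTR2B probe set read 4.89, 4.67 and 4.76 in untreated cells, 4.35, 4.54 and 4.23 after histamine, 5.24, 5.23 and 4.87 after IFNα, and 4.81, 4.69 and 4.77 after IL6. The histamine arrays lay below the untreated ones, and IFNα repeat 3 fell within their range. Both group means behind the histamine difference of -0.40 (adjusted p 0.00914) lay under the lower quartile of every array, so no fold is given for it. After IFNα it differed by 0.34 (adjusted p 0.0403), under the fold minimum. When both probe sets were averaged, the IFNα difference was 0.54 and was no longer called, while the histamine difference was -0.84 and still was.

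In the RefSeq gene table PSMD1, a proteasome subunit, is listed next to HTR2B, and HTR2B lies wholly within the span of PSMD1 there; PSMD1 was chosen after its values were seen. It differed by 0.66 after histamine (adjusted p 3.38e-08), 0.35 after IL6 and -0.17 after IFNα. HTR2B had the opposite sign in all 3 treatments. Whether RNA of one gene is read by the other's probe sets was not tested.

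Of the serotonin list (receptors, transporter and enzymes), 12 of 20 genes were measured. HTR2B was the only one called after histamine or IFNα, and MAOB, a monoamine oxidase of the outer mitochondrial membrane, was the only one called after IL6. MAOB was 1.77-fold lower, a difference of -0.82, and its other probe set differed by -1.09 and was called too. SLC6A4, the serotonin transporter, passed the adjusted p but not the fold minimum after IL6 (-0.47) and histamine (-0.49). The list's median was 0.037, -0.04 and 0.002 after IL6, IFNα and histamine.

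**Figure D2:**
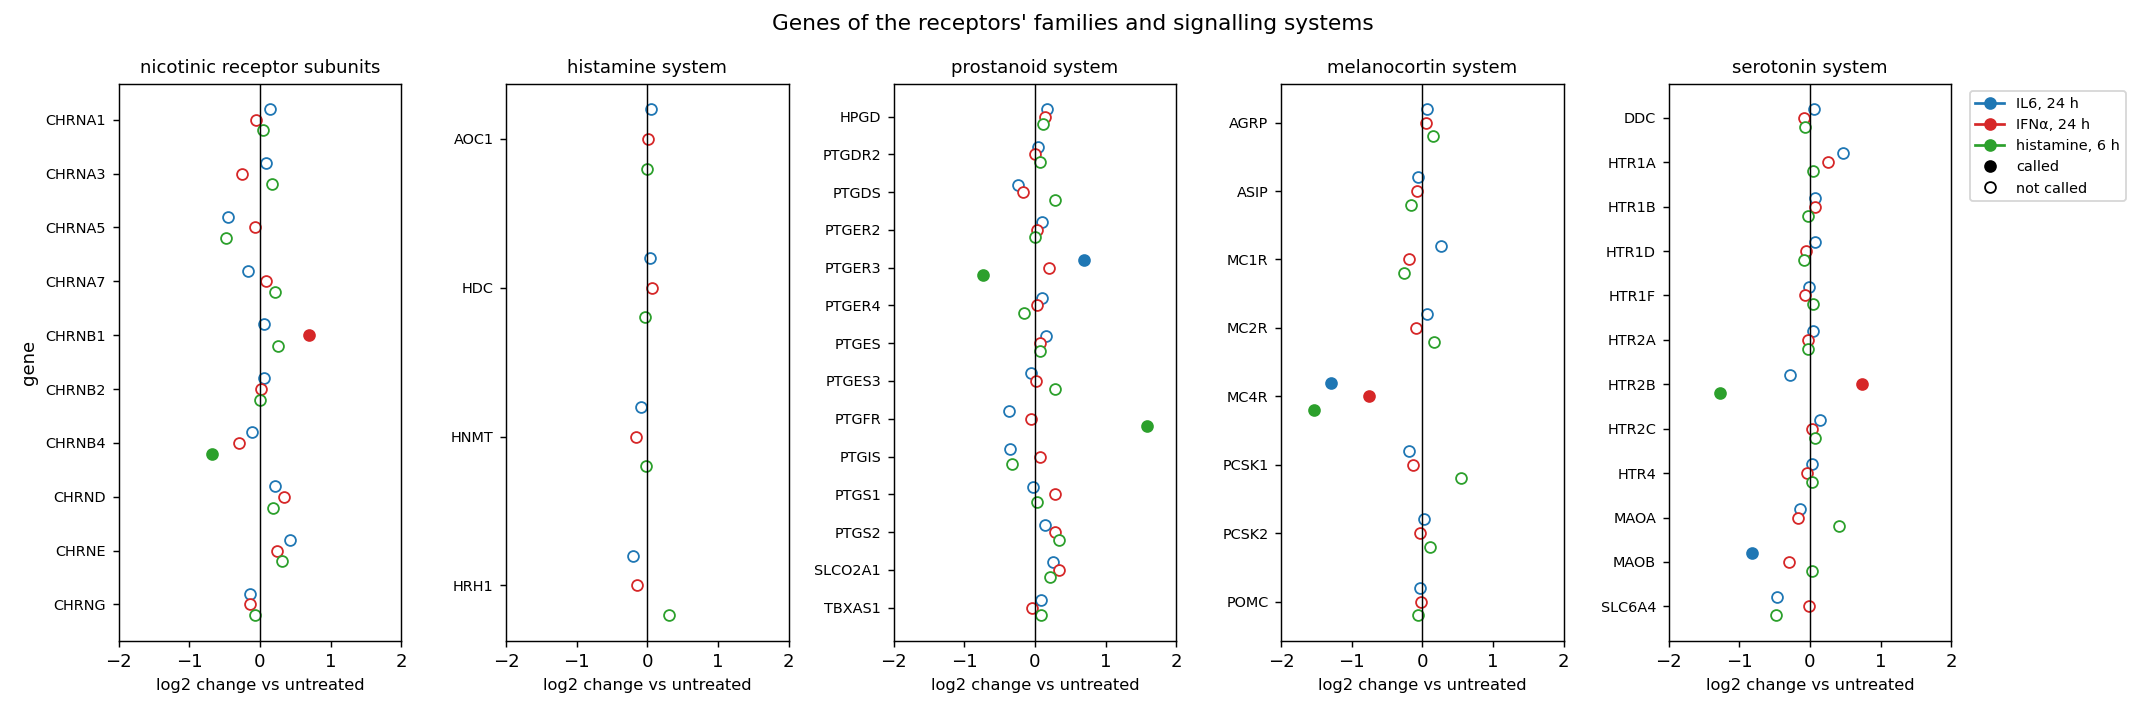
Log2 change against untreated cells (horizontal axis) of every measured gene in the 5 receptor systems, with 1 panel per system; colours mark the treatment and filled points are called changes. Most genes of each system stay unfilled, with CHRNB4, PTGER3, MC4R and HTR2B filled after histamine (CHRNB4 at -0.67, MC4R at -1.54).

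The 3 treatments were also set against each other. IL6 and IFNα were applied for the same time at different doses, whereas histamine differed from both in agent, dose and time, so those comparisons serve only to order the levels. Between IL6 and IFNα, HTR2B was called (-1.02, 2.03-fold, adjusted p 4.09e-06), against 6.11% of all probe sets. PTGER3 was 0.50 higher after IL6 than after IFNα (adjusted p 0.0121, 1.41-fold), under the fold minimum. On the arrays without high hypoxia genes PTGER3 read 8.12 after IL6 and 7.59 and 7.43 after IFNα, a wider difference that exceeded the fold minimum. MC4R was 0.55 lower after IL6 (95% interval -1.05 to -0.05), a difference that missed the threshold after adjustment (adjusted p 0.0945).

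Between IL6 and histamine, PTGER3 (1.42, 2.68-fold, adjusted p 1.72e-06) and HTR2B (0.99, 1.99-fold, adjusted p 6.34e-06) were called, against 6.2% of probe sets. MC4R differed by 0.24 between them (adjusted p 0.47), so over all arrays these lowest groups of MC4R were not separated. CHRNB4 was 0.57 higher after IL6 (adjusted p 0.00927, 1.48-fold), short of the fold minimum. The IL6 array without high hypoxia genes read 7.87 for MC4R and 7.36 for CHRNB4. The histamine means were 7.23 and 6.53, and both differences exceeded the fold minimum. Between IFNα and histamine, PTGER3 (0.93, 1.90-fold), MC4R (0.79, 1.73-fold) and HTR2B (2.01, 4.04-fold) were called, against 9.49% of probe sets. The dimmer HTR2B probe set was called in that comparison as well, at least 1.67-fold higher after IFNα.

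From highest to lowest mean, HRH1 ran histamine, untreated, IFNα, IL6, and of these neighbours only histamine and untreated differed at the adjusted p. CHRNB4 ran untreated, IL6, IFNα, histamine, and no pair of neighbours passed the test (IFNα to histamine, adjusted p 0.0681). PTGER3 ran IL6, IFNα, untreated, histamine, and of its neighbours IFNα and untreated did not pass the test (adjusted p 0.402). MC4R ran untreated, IFNα, IL6, histamine, and neither IFNα and IL6 nor IL6 and histamine passed the test as neighbours. A moderated F test over the 4 groups gave adjusted p values of 0.000403 for HRH1, 0.00776 for CHRNB4, 5.28e-06 for PTGER3, 0.000266 for MC4R and 1.22e-08 for HTR2B.

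**Figure D3:**
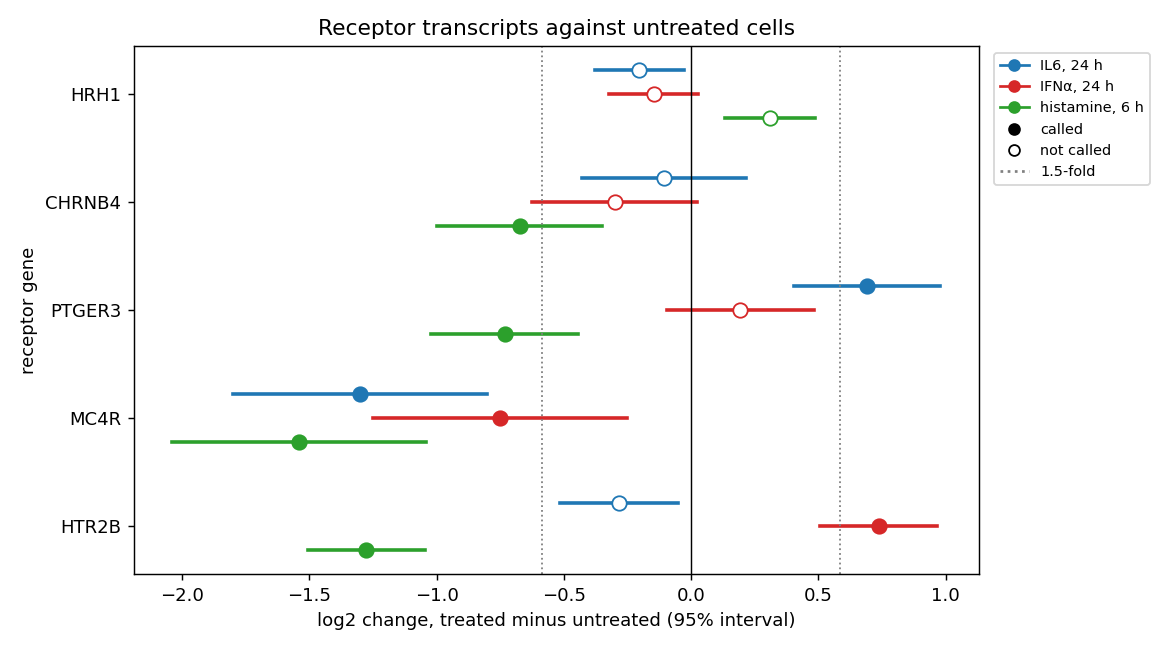
Log2 change of each receptor against untreated cells (horizontal axis) with 95% intervals from limma, for IL6, IFNα and histamine, with HTR2B by its brighter probe set; filled points are called and dotted lines mark 1.5-fold. The histamine intervals of CHRNB4, PTGER3, MC4R and HTR2B lie wholly below 0, and the IFNα interval of HTR2B (0.51 to 0.97) lies above it.

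Of 80 genes listed as receptors of other secretagogues and transmitters, 44 were measured. Of these, 15 lay below the lower quartile in both groups of each comparison. Whether genes of this list were called less often than other genes was not tested. EDNRB, an endothelin receptor, was the only call, after IL6, where it was at least 2.43-fold higher (1.28 on the log2 scale, SE 0.22, adjusted p 0.00113). It read 5.17, 4.81 and 4.87 in untreated cells and 6.63, 6.19 and 5.87 after IL6, a separation of all arrays. No gene of the list was called by limma after IFNα or histamine, where 7 and 3 had an unadjusted p under 0.05.

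Among the G proteins and second messenger effectors through which these receptors act, 27 of 36 genes were measured. Histamine raised PRKAR2A (0.84, 1.79-fold) and PRKACB (0.71, 1.64-fold), a regulatory and a catalytic subunit of the cyclic AMP dependent kinase. It also raised GNAI1, an inhibitory G protein alpha subunit (0.59, 1.5-fold), a call lost in 7 of 25 alternative analyses. GNAO1, another G protein alpha subunit, fell by 0.87 (1.82-fold) after histamine, and its second probe set differed by -0.83. IL6 lowered PRKACB by 0.76, and the difference was -0.55, short of the fold minimum, without the 3 arrays with high hypoxia genes. The second, dimmer PRKACB probe set differed by 0.46 after histamine, uncalled, and by -1.02 after IL6, called. IFNα lowered ADCY2, an adenylyl cyclase, by 0.92 (1.90-fold).

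Of the receptor desensitisation genes (kinases, arrestins and RGS proteins), 16 of 27 were measured and RGS1 was the only call. RGS1, which speeds the shut-off of G protein signals, rose from 8.42, 8.30 and 8.32 to 10.24, 10.47 and 10.58 after IFNα, a difference of 2.08 or 4.24-fold. None was called by limma after IL6 or histamine, where 8 and 4 had an unadjusted p under 0.05.

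The position of the arrays with high hypoxia genes was followed for each receptor. In those arrays HRH1 read 8.47, 8.45 and 8.36 and MC4R 7.51, 7.04 and 7.39, and in each cytokine group the lowest array for HRH1, CHRNB4, MC4R and HTR2B was among them. PTGER3 was highest in each cytokine group on repeat 3. Histamine lowered CHRNB4, PTGER3, MC4R and HTR2B on arrays whose hypoxia list mean was 0.29 to 0.37. On each of those histamine arrays 7 of the 12 list genes lay above every untreated array. VEGFA read 10.71 to 10.74 there, against 9.44 to 9.52 in untreated cells and 11.17 to 11.95 on the 3 arrays with high hypoxia genes. The part of the hypoxia genes in these receptor values was not tested.

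**Figure D4:**
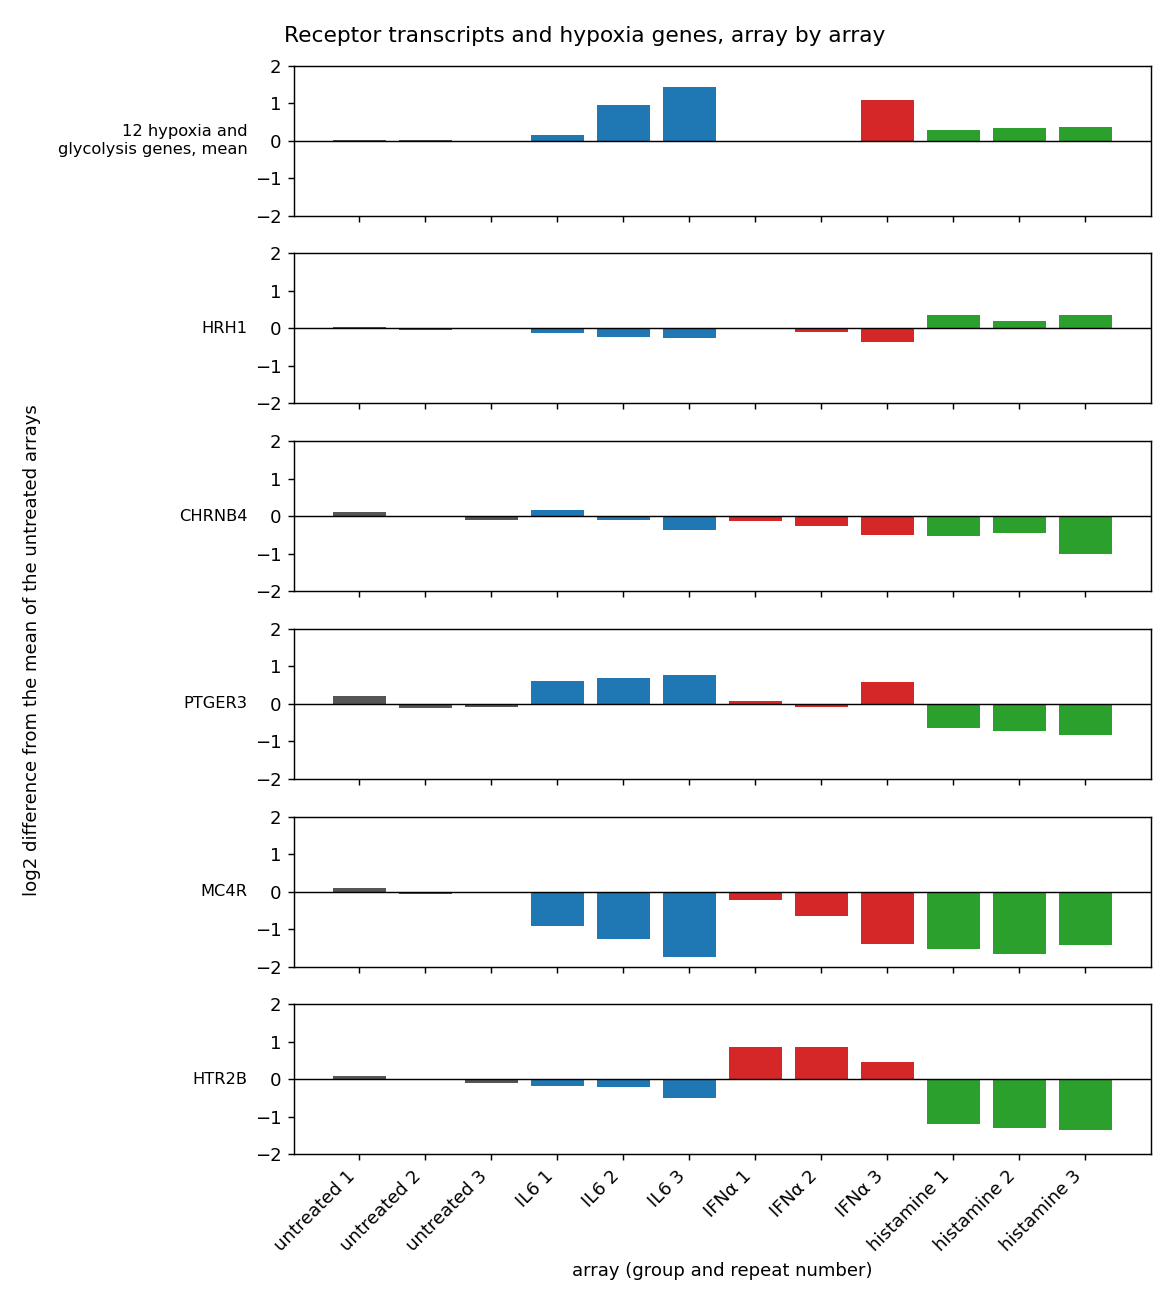
Log2 difference from the mean of the untreated arrays (vertical axis) on each of the 12 arrays, for the mean of 12 hypoxia and glycolysis genes and for the 5 receptors. The hypoxia mean is 0.94, 1.42 and 1.08 on IL6 repeats 2 and 3 and IFNα repeat 3, where the MC4R bars are long and downward, while the histamine arrays have long MC4R and HTR2B bars with a hypoxia mean of 0.29 to 0.37.

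Markers of the cells a culture could hold moved with the treatments too. Adrenal cortical markers, 11 measured of 11, had summed linear levels of 2002 to 2083 in untreated cells, 1617 to 1665 after IL6, 1511 to 1555 after IFNα and 2850 to 2916 after histamine. Of these, 3 were called lower after IL6, 5 lower after IFNα and 2 higher after histamine, with CYP11A1, the cholesterol side-chain cleavage enzyme, at -1.27, -1.06 and 0.93. Leukocyte markers summed to 752.4 to 788.9 in untreated cells and 1293 to 1492 after IL6. Of the 10, CORO1A (3.25-fold) and CD14 (2.05-fold) were called higher and ITGB2 (1.93-fold) lower after IL6, with a list median of 0.162. After histamine the sums were 881.2 to 929.7, and CORO1A was called higher there too (1.62-fold). PTPRC and MS4A1 were under the lower quartile in untreated cells and the other 8 were not. Endothelial sums ran from 666.7 to 683.6 in untreated cells and 516.3 to 625.4 over the treated arrays, and fibroblast and mural sums from 18390 to 19150 in untreated cells, 15660 to 17350 after the cytokines and 19410 to 20040 after histamine. DCN (13.04 in untreated cells) and RGS5 (13.10) dominate the fibroblast and mural sum. The median difference of that list was -0.197 after IL6, -0.213 after IFNα and 0.35 after histamine. Of the 9 endothelial markers, KDR, VWF and CLDN5 were under the lower quartile in untreated cells, while PECAM1 (6.28), CDH5 (6.84), TEK (6.59) and EMCN (7.29) were among the 6 above it. EMCN was called lower after IL6 (-0.60) and IFNα (-0.89), and after histamine TEK was called lower and CLDN5 higher. Among fibroblast and mural markers, IL6 raised POSTN and lowered ACTA2, IFNα lowered ACTA2 and histamine raised COL1A2. Of 8 Schwann cell markers 5 were measured and none was called. Their sums were 1386 to 1439 in untreated cells, 1579 to 1606 after IL6, 1074 to 1128 after IFNα and 1486 to 1527 after histamine. S100B, with a mean of 9.98 in untreated cells and 9.51 after IFNα, dominates this sum. The list's median difference after IFNα was -0.143. The chromaffin markers, 11 of 14 measured, summed to 77550 to 79780 in untreated cells and 87860 to 90640 after histamine, a sum that bright genes dominate. After histamine 3 of the 11 were called higher, PNMT, which makes adrenaline (4.90-fold), SLC18A2 (1.70-fold) and SCG2 (1.66-fold), and none lower. DBH (-0.58), CYB561 (-0.41) and SYT1 (-0.28) had negative differences that were not called, and the list median was 0.053. After IL6 SLC18A2 was called higher and PNMT lower. PNMT read 6.94, 7.49 and 7.79 after IL6 and 8.08, 8.06 and 8.22 in untreated cells. The part of cell composition in the receptor values was not tested.

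Some genes followed the receptors closely over the 12 arrays, which is given as a description with no test, since the arrays share groups. Closest to MC4R were GTF2I (Pearson r 0.976), STK36 (0.973) and MCM4 (0.968). Their changes were smaller than those of MC4R, with GTF2I at -0.28, -0.16 and -0.30 after IL6, IFNα and histamine. Closest to HTR2B were IFT52 (0.983), ANKRA2 (0.981) and CLUAP1 (0.979), and 51 genes had r over 0.95 with it. These 3 also changed less than HTR2B, with IFT52 at -0.07, 0.31 and -0.42. PTGER3 was followed by RNF8 (0.962), PALLD (0.958) and KCTD15 (0.954), with PALLD at 0.49, 0.15 and -0.35 after IL6, IFNα and histamine. CHRNB4 was followed by STX7 (0.941), STX18 (0.923) and APBB3 (0.918), with no gene over 0.95.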

How the data were processed

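Biotin-labelled RNA of the cells was read on Affymetrix bovine arrays. The authors deposited log2 expression values, which come from RMA according to the submitters' processing notes (version not given in the sources used here). RMA compresses differences of dim transcripts, and the values carry no detection calls. No rescaling was applied. Of the probe sets, 112 controls were left out and 24016 tested; 13292 had 1 symbol, 86 several and 10638 none.

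Levels were compared with limma 3.58.1 in R 4.3.3 (a mean per group over 12 arrays, eBayes with a mean-variance trend, Benjamini-Hochberg over all probe sets tested). Calls needed a fold of 1.5 or more and an adjusted p under 0.05. The brightest probe set stood for a gene that has more than 1. Where the lower mean lay under the lower quartile of every array, the fold is a lower bound. The fit was tested on simulated data. The rule named all receptor probe sets, every called gene of the receptor and signalling lists, at most 2 called genes per cell marker list and comparison, and the 3 genes closest in pattern to each called receptor. Any other gene, such as uncalled list members, SCG2 and ITGB2, was chosen after its values were seen. The receptors, lists and tests were chosen with earlier results of these data known. Alternatives were other fold minimums, variance models, weights, scalings, filters, the repeat number as a block, and leaving out arrays. Figures used matplotlib 3.10.9 in Python 3.11.15.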

Additional observations from a re-analysis of the deposited data

How the results depend on the processing

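There were 25 alternatives, 24 planned and 1, leaving out the 3 arrays with high hypoxia genes, added after seeing the data. In the 24 planned ones, MC4R after IL6 (-1.50 to -1.08), MC4R after histamine (-1.60 to -1.47) and HTR2B after histamine (-1.32 to -0.84) stayed called. The added alternative left 1 IL6 array, with MC4R after IL6 at -0.90, so for IL6 it gives effect sizes only. With a fold minimum of 1.2, HRH1 after histamine (0.31) was called, and the number of receptors called was 2 between IL6 and IFNα and 4 between IL6 and histamine. With no fold minimum, 28.5% and 32.9% of all probe sets passed the adjusted p in those comparisons. The share of all probe sets called was not worked out for the alternatives, so their receptor counts are a description only. With a minimum of 2, the calls at 0.69 (PTGER3, IL6), -0.75 (MC4R, IFNα), 0.74 (HTR2B, IFNα), -0.67 (CHRNB4, histamine) and -0.73 (PTGER3, histamine) were lost, leaving 1 receptor after IL6, 0 after IFNα and 2 after histamine, and 1 each between IL6 and histamine and between IFNα and histamine. At that 0, limma's unadjusted p was under 0.05 for 2 receptors. MC4R after IFNα (-0.75) was lost without a variance trend (adjusted p 0.057) and with robust eBayes (0.125), leaving 1 receptor each time. With array weights MC4R was at -0.58 after IFNα (1 receptor left), CHRNB4 at -0.55 after histamine, and 3 receptors were called between the cytokines. Averaging probe sets put HTR2B after IFNα at 0.54, uncalled, leaving 1 receptor. Without each array in turn, MC4R after IFNα ran from -1.02 to -0.43, CHRNB4 after histamine from -0.78 to -0.50, CHRNB4 after IL6 from -0.24 to 0.025, PTGER3 after IFNα from 0 to 0.33 and CHRNA5 after IFNα from -0.14 to 0.035. The receptors called ran from 1 to 2 after IFNα and from 1 to 3 between the cytokines. Without the 3 arrays, CHRNB4 after IL6 was 0.16, PTGER3 after IFNα 0, CHRNA5 after IFNα 0.035 and MC4R after IFNα -0.43. The causes were not tested. With the repeat number as a replicate block, no receptor call changed (MC4R after IFNα -0.75, adjusted p 0.0101). After group means were removed, same-numbered arrays of different groups correlated at -0.072 to 0.597, and differently numbered ones at -0.609 to 0.367. By that measure 9 of 12 arrays lay closest to their own number. Scalings moved the median change of all probe sets by at most 0.037. EDNRB was itself among the dimmer 50% of probe sets, so it was not tested when these were left out. The 3 technical repeats per group limit the precision.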
